A study of Mus musculus with 7 samples.

Results

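Genes that make eicosanoids, the lipid mediators derived from arachidonate, were examined in mammary glands of mice fed conjugated linoleic acid (CLA). The 10 genes were chosen by name as enzymes of arachidonate release, cyclooxygenases, lipoxygenases and terminal synthases, namely Pla2g4a, Ptgs1, Ptgs2, Ptges, Ptgis, Ptgds, Alox5, Alox5ap, Alox12 and Ltc4s. Probe sets annotated to exactly 1 of them were found for 9 genes, 14 probe sets in all, of 18193 genes and 45101 probe sets on the array. For Ptgs1 no probe set carried the name in the annotation used here, so it was not analysed here. The tested animals were virgin female FVB/PyV-Mt mice that ate chow with 1% CLA for 4 weeks and were killed at 8 weeks of age, and 4 of their glands were profiled. The controls were 3 virgin female FVB/PyV-Mt mice of the same age on control AIN93G chow. Both groups carry the polyoma virus middle T oncogene, which drives mammary tumours, so no gland without the oncogene is among these arrays. CLA is a mixture of linoleic acid isomers with conjugated double bonds. Each array is a whole gland, so fewer cells of a type and less RNA per cell cannot be told apart.

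Eicosanoids are made when a phospholipase frees arachidonate from membrane phospholipid. The cyclooxygenases turn it into prostaglandin H, which terminal synthases convert to the prostaglandins and prostacyclin, while the lipoxygenases convert it to hydroxy fatty acids and leukotrienes. In the mammary gland, prostaglandins made by epithelium and stroma act on nearby cells through G protein-coupled receptors, and cyclooxygenase activity is known to promote mammary tumours in mice.

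Signals are MAS5 intensities on a linear scale, compared only between arrays for the same probe set. All 7 luminal epithelial markers and all 7 basal markers with a probe set lay above the filter on dim genes, a mean signal of 57.7. RNA integrity was read from the ratio of 3′ to 5′ Actb signal, which was 2.78 on CLA replicate 3 and 1.41 to 1.88 on the other 6 arrays. Titles carry numbers starting with 27 (CLA replicate 1 and control replicate 1) or 28 (the other 5 arrays), and the labels do not say what they stand for.

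The bases before the annotated start site are shown for Ltc4s, the member with the largest difference among those tested, and for Ptgs2, the inducible cyclooxygenase. RefSeq promoters on GRCm38.p6 were matched by symbol for 8 of the 10 genes. The sequences are read 5′ to 3′ and ending at the base before the start. Capitals mark a match to GGGCGG, the GC box.
Ltc4s, chr11:50238533-50238782, minus strand: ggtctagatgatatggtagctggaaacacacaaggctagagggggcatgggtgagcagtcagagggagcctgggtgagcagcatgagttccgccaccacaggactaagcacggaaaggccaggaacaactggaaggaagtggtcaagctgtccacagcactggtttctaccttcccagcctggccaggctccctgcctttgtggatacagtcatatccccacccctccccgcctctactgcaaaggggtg
Ptgs2, chr1:150099781-150100030, plus strand: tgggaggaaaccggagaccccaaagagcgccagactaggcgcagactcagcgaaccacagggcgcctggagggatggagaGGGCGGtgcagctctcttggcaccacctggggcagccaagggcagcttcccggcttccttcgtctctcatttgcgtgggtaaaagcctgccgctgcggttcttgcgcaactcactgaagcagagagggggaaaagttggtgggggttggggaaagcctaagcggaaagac
Both strands were searched for this and 5 other motifs. Ptgs2 held 1 GC box, whose first base lies at -170, and Ltc4s held none of the motifs in this window. A GC box was present in 32.7% of 32851 promoters of the same length. The TATA box, searched as TATAAA, was present in 12.4% of these promoters. The CCAAT box, searched by those letters, was present in 33.8%. For the E-box, searched as CACGTG, the share was 6.02%. The cAMP response element, searched as TGACGTCA, was in 1.55%, and a direct repeat of the nuclear receptor element AGGTCA with any 1 base between was in 0.0335%.

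No eicosanoid enzyme passed the test between CLA and control glands. Of the 7 members bright enough to be tested, limma called 0 at an adjusted p under 0.05, where it called 0% of 12497 genes. At an unadjusted p under 0.05 there were again 0 of 7 members, against 5.39% of all genes tested. The groups overlapped for every one of the 9 measured members, while they did not overlap for 5.31% of genes tested, with CLA above control for 2.64% and below for 2.67%. All 7 log2 changes were negative, from -0.80 for Ltc4s to -0.01 for Ptges, but those of Pla2g4a and Ptges were positive with each array centred on its median (0.01 and 0.07) and that of Alox5 was 0.01 with array weights. Their median was -0.26, beside 0.03 over all genes tested.

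**Figure D1:**
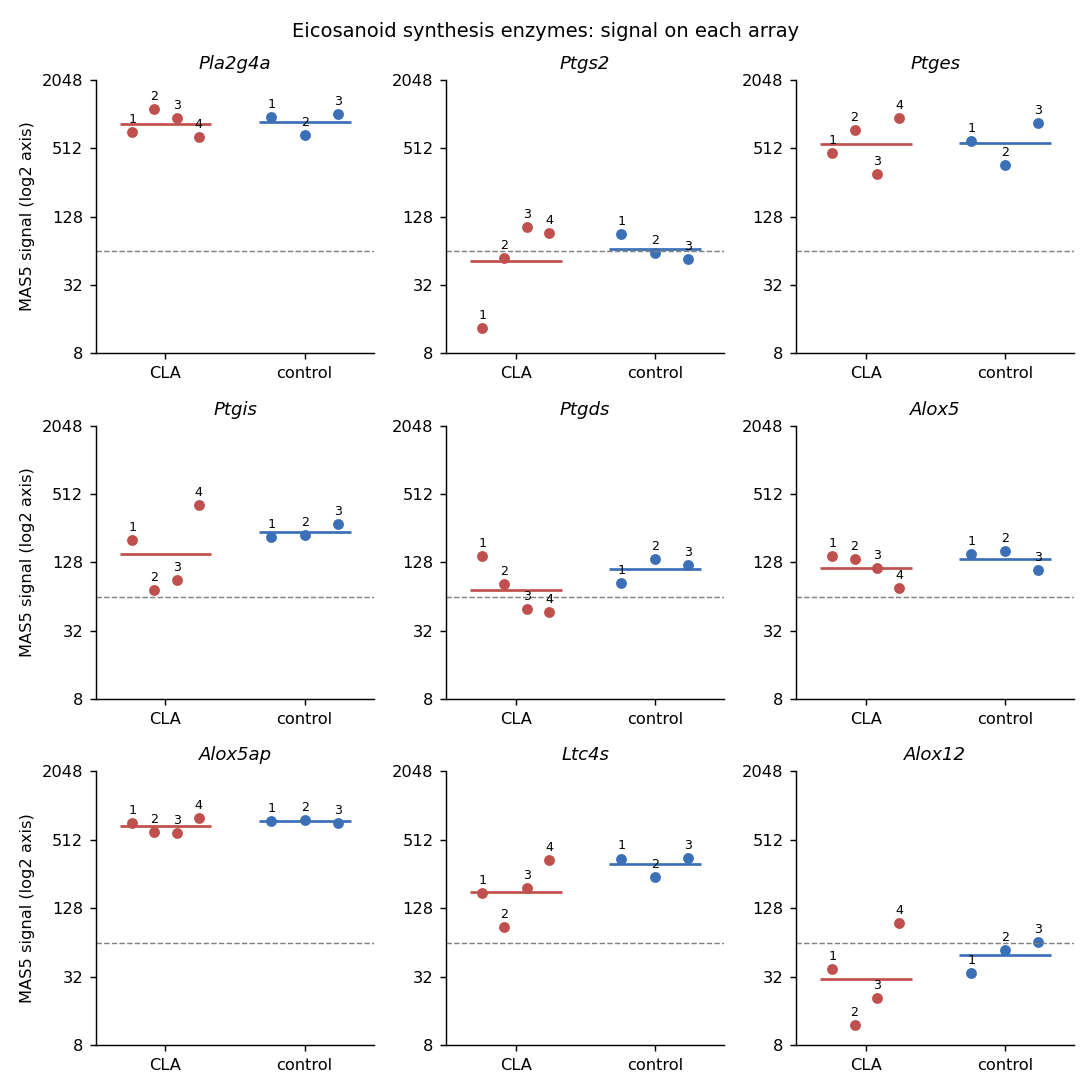
MAS5 signal (vertical, log2 axis) of the 9 measured enzymes on each array, with CLA arrays left and control arrays right, numbered by replicate. Bars are geometric means, and the dashed line is the signal of 63.6 below which 95% of odorant receptor probe sets lay. CLA and control arrays overlap in every panel, and Ptgs2 and Alox12 lie around the dashed line.

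Background was judged from 44 probe sets for odorant receptors, genes of the nose that a mammary gland is not known to use. Their median signal was 18.6 and their 95th percentile was 63.6. Ptgs2 and Alox12, with geometric mean signals of 57.4 and 37.6, lay under both this level and the filter, and were not tested. Ptgds, at 87.4, was above the level on 5 of 7 arrays, each array against its own 95th percentile. The other 6 members were above it on all 7 arrays.

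Pla2g4a encodes the cytosolic phospholipase that frees arachidonate. Its signals were 707, 1131, 939 and 645 in CLA glands, against 971, 667 and 1031 in control glands. Both groups covered nearly the same range. The means were 855 ± 223 in CLA glands (SD, n = 4) and 890 ± 195 in control glands (SD, n = 3). This was a log2 change of -0.07 ± 0.24 (SE, 95% interval from -0.60 to 0.47, limma adjusted p of 0.997).

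Of the cyclooxygenases, which make prostaglandin H, Ptgs2 could be read. This inducible form had signals of 13.3, 55.6, 104 and 91.0 in CLA glands, against 89.4, 60.7 and 53.9 in control glands. CLA replicate 1 was the lowest of the 7 arrays and CLA replicate 3 the highest. Only 4 of the 7 signals exceeded the odorant receptor level of their own array. The log2 difference was -0.37 with all arrays and 0.28 without CLA replicate 1, so it took its sign from that array. The dimmer Ptgs2 probe set had a difference of 0.70. Tested without the filter, the limma unadjusted p was 0.599.

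Ptges encodes the inducible, microsomal synthase that makes prostaglandin E from prostaglandin H. It had signals of 467, 738, 304 and 948 in CLA glands, against 587, 362 and 857 in control glands. The highest and the lowest array were both CLA glands, with the control arrays between them, and the mean was 615 ± 285 in CLA glands (SD, n = 4) and 602 ± 248 in control glands (SD, n = 3). The lowest arrays were CLA replicate 3 and control replicate 2, which also had the 2 highest Actb 3′ to 5′ ratios, 2.78 and 1.88. The part of RNA integrity in these signals was not tested. On the log2 scale the change was -0.01 ± 0.40 (SE, 95% interval from -0.92 to 0.89, limma adjusted p of 0.999). The other 2 Ptges probe sets had changes of -0.06 and -0.33.

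Ptgis encodes prostacyclin synthase, an enzyme of vessel wall and stroma. Its signals were 199, 72.3, 90.1 and 410 in CLA glands, against 212, 223 and 278 in control glands. Both the lowest and the highest array were CLA glands, and the control arrays lay close together between them. Mean signal was 193 ± 155 in CLA glands (SD, n = 4) and 238 ± 35.8 in control glands (SD, n = 3). The log2 change was -0.64 ± 0.53 (SE, 95% interval from -1.82 to 0.55, limma adjusted p of 0.966). Without CLA replicate 4 it was -1.11, with a limma unadjusted p of 0.0183 and an adjusted p of 0.656. Without CLA replicate 2 it was -0.28, with a limma unadjusted p of 0.582. The 2 arrays whose title numbers start with 27 gave a difference of -0.09 and the other 5 gave -0.84, while blocking on this number gave -0.62.

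Ptgds encodes a prostaglandin D synthase of the lipocalin family, best known from brain, testis and heart. It had signals of 146, 81.7, 49.6 and 46.9 in CLA glands, against 84.7, 138 and 121 in control glands. CLA replicate 1 was the highest of all arrays, while CLA replicates 3 and 4 were lowest and under the odorant receptor level. The log2 change was -0.63 ± 0.43 (SE, 95% interval from -1.59 to 0.33, limma adjusted p of 0.944). Without CLA replicate 1 it was -0.96, with a limma unadjusted p of 0.0289 and an adjusted p of 0.867. Without CLA replicate 4 it was -0.42, with a limma unadjusted p of 0.355. The 5 arrays with numbers starting with 28 gave -1.17 (limma unadjusted p of 0.0233, adjusted p of 0.426) and the other 2 gave 0.78, the opposite sign. Blocking on the number gave -0.59.

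The leukotriene branch was read through 3 members. Alox5, the lipoxygenase of white blood cells that starts leukotriene synthesis, had signals of 147, 137, 114 and 75.9 in CLA glands, against 150, 160 and 109 in control glands. The CLA range took in much of the control range, and CLA replicate 4 was the lowest array. Its log2 change was -0.26 ± 0.30 (SE, 95% interval from -0.94 to 0.42, limma adjusted p of 0.993), and it was -0.06 without CLA replicate 4.

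Alox5ap encodes the membrane protein that presents arachidonate to the Alox5 enzyme. It was the steadiest member, with signals of 716, 596, 591 and 800 in CLA glands, against 754, 766 and 715 in control glands. The highest array was 1.35 times the lowest. The log2 change was -0.15 ± 0.16 (SE) with limma's adjusted p of 0.986, and its 95% interval, from -0.52 to 0.21, was the narrowest of the 7. Of the macrophage markers, 8 of 9 had a probe set and all 8 lay above the filter, with a summed signal of 13055 to 16000 in CLA glands and 11834 to 15146 in control glands. Csf1r and C1qa were the brightest in this sum. Cd163 had a log2 change of -1.06 (limma unadjusted p of 0.00166, adjusted p of 0.576), with all CLA arrays below all control arrays. Changes of 6 of the 8 were positive.

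Ltc4s encodes leukotriene C synthase, which joins glutathione to leukotriene A. It had the largest difference of the tested members, with signals of 175, 86.6, 194 and 341 in CLA glands, against 350, 239 and 356 in control glands. CLA replicates 1, 2 and 3 lay below all control arrays, and CLA replicate 4 lay among them. Mean signal was 199 ± 105 in CLA glands (SD, n = 4) and 315 ± 65.8 in control glands (SD, n = 3). CLA glands were 1.74-fold lower by geometric mean, a log2 change of -0.80 ± 0.41 (SE, 95% interval from -1.71 to 0.11). This did not pass, with limma's unadjusted p of 0.0782 and adjusted p of 0.904. Without CLA replicate 4 the change was -1.11 (limma unadjusted p of 0.0110, adjusted p of 0.612), and without CLA replicate 2 it was -0.45 (limma unadjusted p of 0.181). The 2 arrays with numbers starting with 27 gave -1.0 and the other 5 gave -0.70, and blocking on the number gave -0.79. Mast cells are a known source of this enzyme. Of 7 mast cell markers, all had a probe set and 5 lay above the filter, with a summed signal of 3506 to 4811 in CLA glands and 4094 to 4928 in control glands. Most of this sum was Kit, which other cells also use. The mean centred log2 signal of the 5 was 0.00, -0.02, -0.50 and 0.65 on CLA replicates 1 to 4, against 0.26, -0.19 and -0.19 in control glands. The mast cell protease gene Cpa3 had signals of 177, 154, 121 and 356 in CLA glands, against 252, 109 and 188 in control glands. Cpa3, Mcpt4 and Tpsb2 were all highest on CLA replicate 4, the CLA gland with the highest Ltc4s, although Mcpt4, at 58.2, was near background. Kit was lowest of the 7 arrays on CLA replicate 4 (2521). Cma1 was 287 on CLA replicate 4 and highest on control replicate 1 (301). Ms4a2 and Hdc, lowest and highest on CLA replicate 4, lay under the filter. The part of mast cell content in Ltc4s was not tested.

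**Figure D2:**
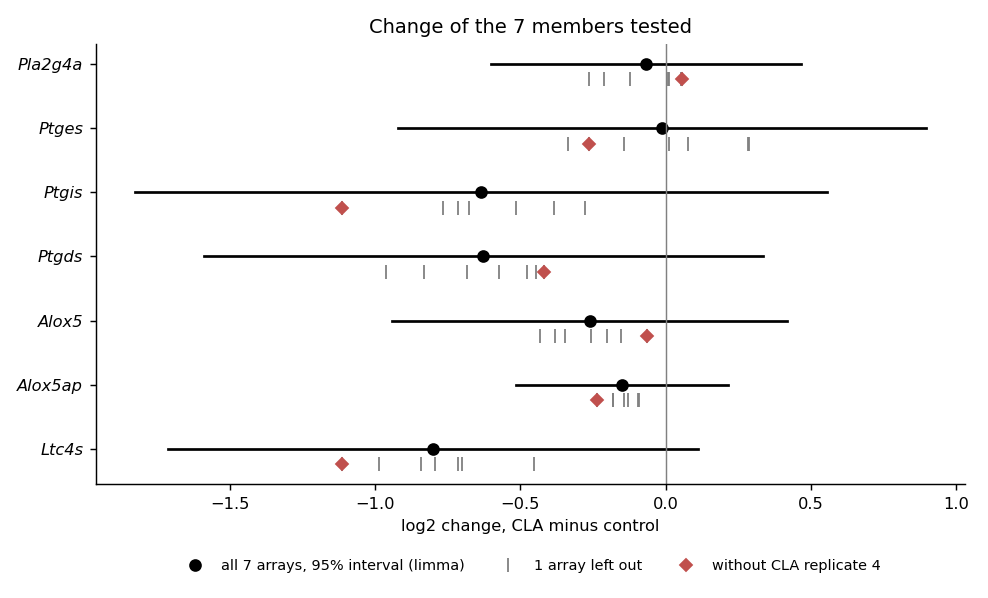
Log2 change (CLA minus control, horizontal) of the 7 tested enzymes, with limma's 95% intervals in black. Grey ticks are fits with 1 array left out, and red diamonds are fits without CLA replicate 4. All 7 intervals include 0, and without CLA replicate 4 the changes of Ptgis and Ltc4s are both -1.11. Without CLA replicate 2 they are -0.28 and -0.45.

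Alox12, the lipoxygenase of platelets and skin, lay near background. Its signals were 37.2, 12.0, 20.7 and 95.5 in CLA glands, against 34.0, 54.4 and 64.8 in control glands, and 1 of the 7 exceeded the odorant receptor level of its array. The log2 difference was -0.69 on this probe set and 0.29 on the dimmer one. Without the filter the limma unadjusted p was 0.341.

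Some members varied alike over the 7 arrays, with any difference between the diets left in. Likeness was measured as the root mean square difference between log2 signals, each centred on the gene's own mean over the 7 arrays. Ptgis differed least from Alox12 (0.24) and Ltc4s (0.45), and Ltc4s from Alox12 by 0.53, although Alox12 is close to background. All 3 were lowest on CLA replicate 2, and Ptgis and Alox12 were highest on CLA replicate 4. Among the control arrays the order differed. Alox12 was lowest on control replicate 1 (-0.14), where Ltc4s stood at 0.63. Ltc4s was lowest on control replicate 2 (0.08), where Alox12 stood at 0.53. Of the members that varied less, Alox5 differed from Alox5ap by 0.41 and from Pla2g4a by 0.42, and Pla2g4a from Alox5ap by 0.43. A small difference can also come from small variation, so these 3 values do not show a shared pattern. Pla2g4a and Alox5ap lay on opposite sides of their means on every CLA array and control replicate 2. On CLA replicate 4 they were at -0.40 and 0.19, and only on control replicates 1 and 3 did they share a side. Ptgds and Alox5 differed by 0.45, while Ptgs2 differed from every other member by 0.91 or more.

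The white adipocyte markers were also low on CLA replicates 2 and 3, where Ptgis, Alox12 and Ltc4s were below their own means, but the orders differed on other arrays. Of 10 markers, 8 had a probe set, all above the filter and none at 0, with a summed signal of 17547 to 55334 in CLA glands and 57806 to 73658 in control glands. Their mean centred log2 signal was -0.96, -1.08, -0.84 and 0.36 on CLA replicates 1 to 4, against 0.71, 1.05 and 0.77 in control glands. CLA replicate 4, where Ltc4s and Ptgis had control-like or higher signal, was also the CLA gland with the highest adipocyte score, although that score lay below all controls. Among controls, replicate 2 had the highest adipocyte score and the lowest Ltc4s. The part of fat cell content in Ltc4s and Ptgis was not tested.

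Skeletal muscle markers varied along with Ptgds. All 10 had a probe set above the filter and none was at 0, and their summed signal ran from 347 to 13944 in CLA glands and from 9393 to 92031 in control glands. The muscle score was 1.46, -3.94, -1.22 and -3.38 on CLA replicates 1 to 4, against 0.91, 4.41 and 1.76 in control glands. The 3 arrays with the highest score, control replicates 2 and 3 and CLA replicate 1, were the 3 with the highest Ptgds. On CLA replicate 2, with the lowest score, Ptgds was higher than on CLA replicates 3 and 4. The part of muscle in the Ptgds signal was not tested.

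**Figure D3:**
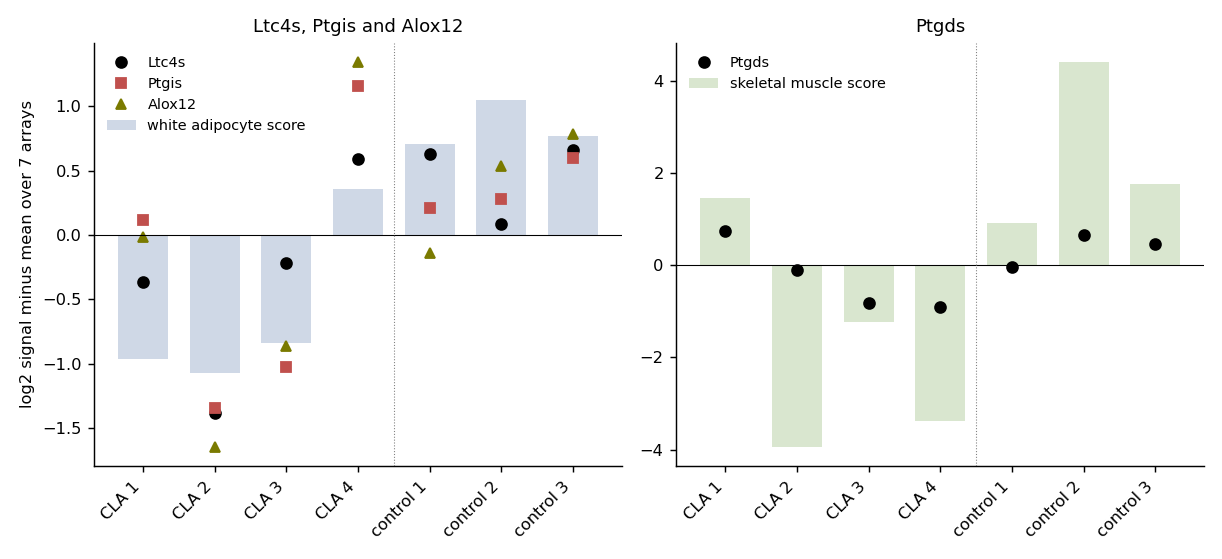
Log2 signal minus the mean over the 7 arrays (vertical) on each array, for Ltc4s, Ptgis and Alox12 (left, markers) with the white adipocyte score (bars) and for Ptgds (right, points) with the skeletal muscle score (bars). CLA replicate 4 stands at 0.36 on the adipocyte score and the other CLA arrays at -0.84 or below, and the muscle score spans -3.94 to 4.41.

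The genes most like these members over the 7 arrays were found among all genes tested. They were picked by this likeness on the same arrays, so high arrays shared with a member follow from the choice. For Ptgis they were Enpep, an aminopeptidase that cleaves angiotensin (0.24), Bbip1, a subunit of the ciliary BBSome (0.34), and Spon2, a secreted matrix protein (0.36). Enpep had signals of 358, 168, 286 and 816 in CLA glands, against 459, 491 and 592 in control glands, with CLA replicate 4 highest as for Ptgis. For Ltc4s they were Fxyd4, a regulator of ion transport (0.24), Agmo, which cleaves ether lipids (0.28), and the transcription factor gene Tcf15 (0.28). Agmo had signals of 301, 212, 294 and 514 in CLA glands, against 538, 482 and 471 in control glands. For Ptgds they were Txlnb, a taxilin of muscle (0.16), the homeobox gene Alx4 (0.30) and Neurl3, a ubiquitin ligase gene (0.31). Txlnb had signals of 166, 111, 72.0 and 77.0 in CLA glands, against 120, 213 and 158 in control glands, high on the same 3 arrays as Ptgds.

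Around these enzymes, 65 further genes of the pathway were read in 4 lists. Of these, 59 had a probe set and 40 were tested, and limma called 0 of 40 at an adjusted p under 0.05. At an unadjusted p under 0.05 6 of the 40 had lower signal in CLA glands and 1 had higher, together 17.5%. Over all genes tested, 3.01% were lower and 2.38% higher at this threshold. All 8 white adipocyte markers also had lower signal in CLA glands at an unadjusted limma p under 0.05, with a median log2 change of -1.47. So did all 10 skeletal muscle markers, with a median of -4.27. The part of fat cell or muscle content in the lower pathway genes, Mgll, Ephx2 and Cyp4f13 among them, was not tested. The share of 17.5% is a description, since the lists were chosen with results known.

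Receptors had the most negative median, -0.34 over 5 of 13 tested. That median is the change of 1 gene, Cysltr1, which lay near background (63.2). Ptger3 encodes a prostaglandin E receptor that lowers cyclic AMP and is abundant in fat cells. It had signals of 268, 207, 262 and 491 in CLA glands, against 585, 767 and 494 in control glands. The groups did not overlap, although CLA replicate 4 (491) and control replicate 3 (494) were almost equal. Its log2 change was -1.06 ± 0.30 (SE), with limma's unadjusted p of 0.00539 and adjusted p of 0.688. Its only other probe set had a signal of 2.71 and a change of 0.17, and the mean of both was -0.44. CLA replicate 4, the CLA gland with the highest Ptger3, was also the one with the highest white adipocyte score, and the part of fat cell content in Ptger3 was not tested.

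Ptger2, a prostaglandin E receptor that raises cyclic AMP, had signals of 373, 398, 440 and 395 in CLA glands, against 508, 507 and 690 in control glands. All CLA arrays lay below all control arrays. Its log2 change was -0.49 ± 0.18 (SE), with limma's unadjusted p of 0.0205 and adjusted p of 0.834, and without control replicate 3 it was -0.34. The differences within title numbers starting with 27 and 28 were -0.45 and -0.53. Cysltr1, a receptor for cysteinyl leukotrienes and near background at 63.2, had -0.34 ± 0.39 (SE, limma adjusted p of 0.989), and -0.10 without CLA replicate 3. In all, 7 receptors with a probe set were under the filter, among them those for prostaglandin D and prostacyclin (Ptgdr and Ptgir).

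In arachidonate release and return, 13 of 20 genes were tested, with a median of -0.19. Mgll, the lipase of monoacylglycerols that also frees arachidonate from an endocannabinoid, had signals of 1279, 3010, 2112 and 2140 in CLA glands, against 3421, 3917 and 3805 in control glands. The groups did not overlap. This gave a log2 change of -0.86 ± 0.25 (SE, limma unadjusted p of 0.00634, adjusted p of 0.695). Another 2 bright Mgll probe sets had -0.88 and -0.78, and a dim one had 0.56. Pla2g2d, a secreted phospholipase of lymphoid tissue, had -0.93 ± 0.39 (SE, limma unadjusted p of 0.0408, adjusted p of 0.889) at a dim 77.4. Its other probe set, under the filter, had -0.02, and the mean of both was -0.47. Without control replicate 3 the change of Pla2g2d was -0.61, with a limma unadjusted p of 0.193, and without CLA replicate 1 or 3 that p was 0.0947 or 0.0879. Faah, which degrades anandamide, had -0.65 on its brighter probe set and 0.47 on the other.

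Among 12 of 19 other synthases tested, with a median of 0.03, Ephx2 and Alox15 went in opposite directions. Ephx2, the soluble hydrolase of epoxides made from arachidonate, had signals of 289, 283, 333 and 457 in CLA glands, against 745, 675 and 424 in control glands. CLA replicate 4 was above control replicate 3, so the groups overlapped. The log2 change was -0.84 ± 0.25 (SE, limma unadjusted p of 0.00813, adjusted p of 0.703).

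Alox15, a lipoxygenase of macrophages and eosinophils, had signals of 102, 96.2, 122 and 144 in CLA glands, against 61.4, 8.98 and 93.7 in control glands. All CLA arrays were above all control arrays, by little over control replicate 3. In log2 terms the change was 1.62 ± 0.69 (SE, limma unadjusted p of 0.0428, adjusted p of 0.900), and without control replicate 2, whose signal was under the odorant receptor median of its array, it was 0.60. The limma unadjusted p of Alox15 was also above 0.05 without any 1 of the 4 CLA arrays, from 0.0581 to 0.0878. The basal epithelial score was 0.19 to 0.44 in CLA glands, against 0.13, -0.88 and -0.48 in control glands, lowest on control replicate 2 as was Alox15. On other arrays the orders differed. CLA replicate 4 had the highest Alox15 (144) but the lowest basal score of the CLA glands (0.19). Control replicate 3 had more Alox15 than control replicate 1 but a lower score. Of the 7 basal markers, the keratin genes Krt5, Krt14 and Krt17 had higher signal in CLA glands at an unadjusted limma p under 0.05. The log2 change of Trp63 was 0.85, while those of Oxtr, Mylk and Acta2 were -0.09, -0.02 and -0.04. None of the 7 passed after adjustment. The part of basal cell content in Alox15 was not tested. Alox12e, an epidermal lipoxygenase, had 1.05 ± 0.83 (SE, limma adjusted p of 0.962), and without control replicate 3 it was -0.0067.

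In transport and breakdown, 10 of 13 genes were tested, with a median of -0.10. Cyp4f13, of the cytochrome family that hydroxylates leukotriene B, had signals of 200, 172, 153 and 205 in CLA glands, against 253, 426 and 314 in control glands. The groups did not overlap, and the log2 change was -0.83 ± 0.23 (SE, limma unadjusted p of 0.00564, adjusted p of 0.688). Dpep1, a dipeptidase that converts leukotriene D, had -0.55 ± 0.26 (SE), and Ptgr2, a prostaglandin reductase, had -0.34 ± 0.17 (SE), with limma's adjusted p of 0.904 for both. Without control replicate 3 the change of Dpep1 was -0.27. Its other probe set had -0.34. The other Ptgr2 probe sets, all above the filter, had changes of -0.04, -0.22, -0.02, -0.03 and -1.15.

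**Figure D4:**
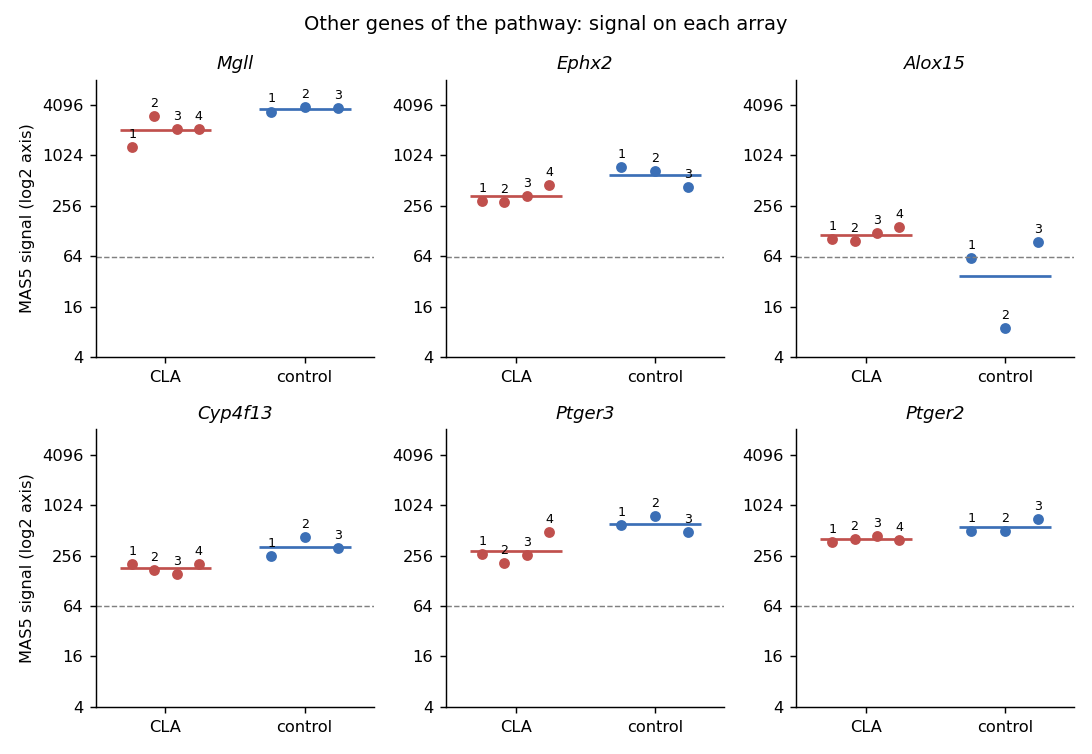
MAS5 signal (vertical, log2 axis) of 6 other pathway genes on each array, CLA left and control right, numbered by replicate, with geometric means as bars and the odorant receptor level of 63.6 dashed. The groups do not overlap for Mgll, Alox15, Cyp4f13, Ptger3 and Ptger2, and they do for Ephx2. These 6 are among the genes of smallest p in their lists. Of all 40 pathway genes tested the groups did not overlap for 5 (12.5%), against 5.31% of all genes tested.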

How the data were processed

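The authors deposited intensity values, which the submitters' processing notes name as MAS5 and which are linear. Each array was scaled to the same 2% trimmed mean, 500.003, as computed from the values. No MAS5 version is stated. Signals under 1 were set to 1 and log2 was taken. Of 45101 probe sets, 34945 had 1 gene symbol, 932 had several, 9160 had none and 64 were controls. Symbols were looked up by Entrez identifier for 34741 in a RefSeq table of GRCm38.p6, for names alone. A gene was read from its probe set of highest mean log2 signal. The 12497 of 18193 genes whose mean reached the 40th percentile (57.7) entered limma 3.58.1 under R 4.3.3 (lmFit, eBayes with trend, two-sided, Benjamini and Hochberg over all genes, threshold 0.05), as CLA minus control without covariates. The small number of arrays limits precision. The labels do not number replicates, and each sample is taken as 1 mouse. P-values measure the spread between these arrays. The fit was tested on simulated data with independent noise for each gene, so without variation shared between genes. Only the size of the estimated changes was checked against the planted ones.

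The members and lists were chosen with earlier results of these data known. Named genes were all members, the 3 genes of smallest p in each pathway list, and the 3 most similar tested genes, leaving out members and clone or predicted gene names, for the 3 tested members of largest SD. Cell type scores are means of centred log2 signals over the tested markers. Alternatives were quantile normalization, median centring, pseudocounts of 16 and 64, averaging all probe sets per gene, dropping the filter, a 60th percentile filter, eBayes without trend, array weights, blocking on title number, using only arrays whose number starts with 28, and leaving out arrays 1 at a time. Matplotlib 3.10.9 (Python 3.11.15) drew the figures.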

Additional observations from a re-analysis of the deposited data

How the results depend on the processing

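Under each of the 18 alternatives 0 members passed at an adjusted p under 0.05, and the median log2 change of the tested members stayed negative, from -0.37 to -0.11, and from -0.43 to -0.20 with an array left out. The count at an unadjusted p under 0.05 was 2 with array weights (Ptgis and Ltc4s), 1 with title numbers starting with 28 alone (Ptgds) and from 0 to 2 with an array left out. The share over all genes tested was 15.6% with array weights and 9.82% with 28 alone. With an array left out it ran from 3.04% to 11.0%. Pla2g4a and Ptges changed sign with median centring (0.0132 and 0.0676) and with title numbers starting with 28 alone (0.0883 and 0.0999), and Alox5 with array weights (0.0112). With an array left out Pla2g4a ran from -0.26 to 0.0561, Ptges from -0.34 to 0.29, Alox12e from -0.0067 to 1.83 and Bbip1 from -0.595 to 0.0228. The cause was not tested.

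Over all genes, 674 had an unadjusted p under 0.05, against 1945 with array weights, 1227 with title numbers starting with 28 alone, and it was 1380, 380 and 430 when control replicate 1, control replicate 2 or CLA replicate 2 was left out. Genes past the adjusted threshold numbered 3 with array weights, 1 with 28 alone, 2 without control replicate 1 and 17 without CLA replicate 4, and 0 under the other alternatives. The 60th percentile filter left 4 members tested and the mean of probe sets 6. No paired analysis was possible because the labels carry no replicate numbers shared between the diets. Scanner files were not used here, so the background correction was not varied, and low signal limits Ptgs2, Alox12 and Ptgds most.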
